A study of Mus musculus with 2 samples.

Results

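FOS peaks that lie close to another FOS peak were taken from the authors' list of narrow peaks in mouse granulosa cells, which line the ovarian follicle and nourish its oocyte. The members were chosen by the positions of the called intervals alone: a peak was taken if no more than 10000 bp separated its interval from another interval on the same chromosome. Of the 2374 peaks, 270 met this rule, which is 11.4% of the list, and linked peaks joined into 128 clusters. Because the rule used positions, the number of clusters and their spacing describe the choice and are not a finding. Score, width, genomic class, nearest gene and promoter sequence were not used by the rule.

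The series holds 2 libraries, both from granulosa cells of wild-type females aged 25 days that were primed with PMSG, a gonadotropin that makes follicles grow, and then given hCG, a hormone that mimics luteinizing hormone and triggers ovulation. Follicles were punctured 3 h after hCG to free the cells. All peaks come from the 1 library made with an antibody to FOS. The second library names no antibody and was not analysed here. Neither untreated cells nor replicates were analysed, the number of animals pooled is not given in the sources used here, and the table gives peaks without reads, which leaves the depth unknown. Spread between animals could therefore not be given, and no test was run. Expression was not measured, so the peaks do not show whether a named gene was transcribed, and the cell type could not be checked against expressed markers.

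FOS is a subunit of AP-1, a dimeric transcription factor in which FOS proteins pair with JUN proteins through a leucine zipper. AP-1 dimers bind the short palindrome TGANTCA, and the FOS gene is an immediate early gene that hormones switch on without new protein synthesis. AP-1 sites occur in promoters and in enhancers far from genes, and a regulatory region can hold several sites, so neighbouring peaks may share a gene without sharing a site.

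Promoter sequence was available for RefSeq genes. It is shown first, for promoters that a peak overlaps, because the AP-1 letters can be seen in it. Of 32851 RefSeq promoter windows, each running from 250 bases before a transcription start site (TSS) to 50 bases after it, 22 windows of 21 genes were covered over at least 100 bp by a peak with a close neighbour. The 4 sequences below are the 250 bases before the TSS of F3, Anxa2, Adgrg1 and 2010003K11Rik, from RefSeq on build GRCm38.p6, printed 5′ to 3′ on the strand of the gene with every match to TGANTCA in capitals. They were picked because each holds at least 1 match under a peak whose cluster has a further peak nearby, and after their values were seen. The window of F3, which encodes tissue factor, the starter of blood clotting, lies at chr3:121723287-121723536 (plus strand). That of Anxa2, which encodes the membrane-binding protein annexin A2, lies at chr9:69453433-69453682 (plus strand). That of Adgrg1, an adhesion G protein-coupled receptor, lies at chr8:94984149-94984398 (plus strand) and belongs to a start site inside the gene. That of 2010003K11Rik lies at chr19:4498584-4498833 (minus strand).
F3: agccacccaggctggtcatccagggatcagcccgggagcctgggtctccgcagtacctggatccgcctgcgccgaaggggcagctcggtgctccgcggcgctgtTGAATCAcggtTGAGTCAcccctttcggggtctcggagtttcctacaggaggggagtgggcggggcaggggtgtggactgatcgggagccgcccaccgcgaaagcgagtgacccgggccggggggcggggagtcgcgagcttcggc
Anxa2: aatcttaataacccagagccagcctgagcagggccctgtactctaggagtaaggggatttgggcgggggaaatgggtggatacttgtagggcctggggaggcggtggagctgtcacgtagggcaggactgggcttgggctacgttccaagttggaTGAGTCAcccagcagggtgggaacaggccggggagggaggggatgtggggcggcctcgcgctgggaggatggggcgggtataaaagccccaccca
Adgrg1: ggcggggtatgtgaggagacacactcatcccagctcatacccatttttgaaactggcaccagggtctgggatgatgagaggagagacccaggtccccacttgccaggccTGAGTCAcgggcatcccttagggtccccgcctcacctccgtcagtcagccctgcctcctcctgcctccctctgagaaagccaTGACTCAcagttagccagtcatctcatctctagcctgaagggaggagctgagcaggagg
2010003K11Rik: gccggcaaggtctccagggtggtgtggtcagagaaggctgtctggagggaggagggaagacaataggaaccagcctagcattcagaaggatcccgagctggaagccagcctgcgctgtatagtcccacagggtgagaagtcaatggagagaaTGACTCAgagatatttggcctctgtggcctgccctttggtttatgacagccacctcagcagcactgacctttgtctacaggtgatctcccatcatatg

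F3 had 2 matches, which began 146 and 135 bases before the TSS, and Adgrg1 had 2, which began 141 and 59 bases before it. Anxa2 had 1 match that began 95 bases before the TSS, and 2010003K11Rik had 1 that began 98 bases before it. The F3 promoter peak scored 63 and its neighbour, 9983 bp upstream of the TSS, scored 76. The Anxa2 promoter peak scored 50 and its neighbour in intron 1, which the authors' table gives to Mir3109, scored 56. The Adgrg1 promoter peak scored 99 and a peak 3.3 kb into intron 1 scored 18, the lowest score of any neighboured peak. The score is a whole number that the authors' table lists per peak. It ran from 13 to 2234 over the list and is used here only to rank peaks within it.

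The AP-1 letters were in 13 of the 22 windows under neighboured peaks, which is 59.1% (exact 95% Clopper-Pearson interval 36.4 to 79.3, for counting error only). In the 282 windows covered over at least 100 bp by a peak with no neighbour, 89 held them (31.6%, interval 26.2 to 37.3), and in all RefSeq windows 7.81% held them. The first share rests on 22 windows, and its interval overlaps the second. The 13 windows belonged to 13 genes, among them Rtn4, Lmna, Ubb, Itgax, Arhgap18, Gtdc1 and Plekha4. The matches at Lmna and Plekha4 lay in the window but outside the interval of the covering peak. The shares therefore count windows with the letters, and not matches inside peaks. In the windows under neighboured peaks the 15 matches lay 2.5 to 322.5 bp from the centre of the covering peak, with a median of 69.5 bp, and 10 of them lay within 100 bp. In the windows under other peaks 86 of 96 matches lay within 100 bp of the centre, with a median of 39.2 bp.

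Of the 9 other motifs searched on both strands, the cAMP response element TGACGTCA was in 3 of the 22 windows against 24 of 282 windows under other peaks (8.51%) and 1.79% of all windows. It stood at Fscn1, which encodes the actin-bundling protein fascin, and in the shared start region of Plekha4 and Ppp1r15a, which counts as 2 windows. The SP and KLF motif GGGCGG was in 10 of 22 windows (45.5%, interval 24.4 to 67.8) against 175 of 282 (62.1%, interval 56.1 to 67.7). The NFY motif CCAAT was in 8 of 22 windows against 124 of 282 (44.0%) and 37.4% of all windows. The remaining letters were AAGGTCA for NR5A factors (2 of 22 against 4.72% of all windows), TGTGGTT for RUNX (2 against 5.27%), AGATAA for GATA (3 against 11.2%), GGAATG for TEAD (4 against 14.7%), TTGCNNNAA for C/EBP (0 against 9.56%) and TGACTCAGC (0 against 0.454%). The last is a part of a MAF recognition element that contains an AP-1 match. In the 282 windows under other peaks the shares were 4.96% for NR5A, 4.61% for RUNX and 5.32% for GATA. They were 13.1% for TEAD, 7.45% for C/EBP and 3.19% for TGACTCAGC. None of these matches shows a bound site.

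**Figure D1:**
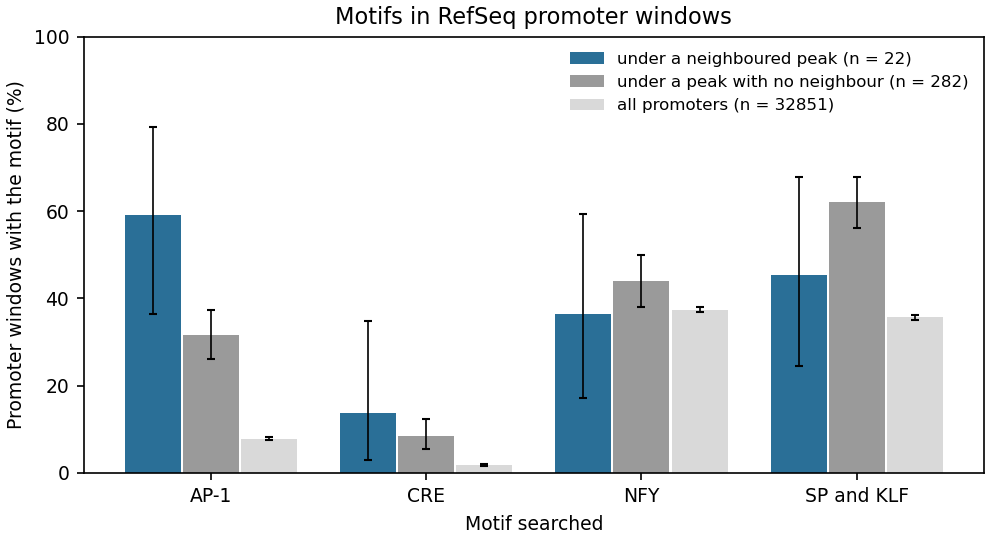
Share of RefSeq promoter windows (%, y axis) that hold each of 4 motifs (x axis), for windows covered by a neighboured FOS peak, by a FOS peak with no neighbour, and for all windows; bars are shares and error bars exact 95% intervals for counting error. The AP-1 letters were in 59.1% of the 22 windows under neighboured peaks and in 31.6% of the 282 under other peaks, with overlapping intervals.

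MicroRNA genes were the nearest gene of 12 of the 270 neighboured peaks (4.44%) and of 76 of the 2104 other peaks (3.61%). MicroRNAs are short RNAs that pair through bases 2 to 8, the seed, with target transcripts. The sequences below are mature miRNAs from RefSeq (GRCm38.p6) within 20 kb of a cluster, with the seed in capitals, shown because some of those beside 1 pair of peaks share a seed, with the gonadal miR-202 added. Each was chosen after its values were seen.
miR-212-3p: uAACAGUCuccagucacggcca
miR-132-3p: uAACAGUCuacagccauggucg
miR-202-5p: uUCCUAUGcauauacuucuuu
miR-199a-3p: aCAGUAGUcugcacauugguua
miR-214-3p: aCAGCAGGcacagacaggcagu
miR-181c-5p: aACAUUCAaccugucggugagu
miR-181d-5p: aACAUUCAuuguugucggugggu
miR-29a-3p: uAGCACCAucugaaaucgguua
miR-29b-3p: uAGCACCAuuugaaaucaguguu
miR-23a-3p: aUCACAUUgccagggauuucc
miR-27a-3p: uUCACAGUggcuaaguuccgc

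miR-212-3p and miR-132-3p share a seed, as do miR-181c-5p and miR-181d-5p, and miR-29a-3p and miR-29b-3p. A promoter-class peak of score 33 at chr11:75173232-75173680 lay over the mature miR-212 sequences and next to miR-132. Its neighbour, of score 105, lay at the promoter of Hic1, a transcriptional repressor gene, with 2418 bp between them. Both miRNAs are known to be induced by luteinizing hormone in granulosa cells. A peak of score 275 lay 13.2 kb from miR-181c, and a peak of score 73 in the same cluster lay 5.9 kb from miR-23a and 6.1 kb from miR-27a. For the gonadal miRNA miR-202 a peak of score 71 lay 3.6 kb away, with a neighbour of score 101 assigned to 6430531B16Rik. Dnm3os, the long noncoding RNA that carries miR-199a and miR-214, had peaks of score 79 and 97 inside the opposite gene Dnm3, and the stronger lay 1.9 kb from miR-199a-3p and 7.5 kb from miR-214-3p. The pair at miR-29a and miR-29b scored 55 and 35, and the stronger peak lay 17.9 kb from miR-29b-3p. The weaker peak at miR-212 was the one on the miRNA gene, while the 181c peak ranked 38 among all 2374 peaks.

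The gaps between intervals are the values that chose the members, and they are given as a description. Of the 142 gaps inside clusters, 35 were of at most 1 kb and 22 of 1 to 2 kb, against 10.6 gaps per kb from 2 to 10 kb, 7 per kb from 10 to 20 kb and 6.50 per kb from 20 to 50 kb. The smallest gap, 84 bp, separated peaks 32.6 and 33.0 kb upstream of Dhx40, an RNA helicase gene. The next 4 smallest gaps began with 91 bp in Inpp5f, a phosphoinositide phosphatase gene, and 101 bp about 42 kb upstream of Gm9199. A gap of 102 bp lay about 19 kb upstream of Lrrc8c, which encodes a subunit of a volume-regulated anion channel. The last, 107 bp, lay about 13 kb upstream of Heyl, a Notch-responsive repressor gene, and inside the span of Nt5c1a. In all, 17 gaps were of 500 bp or less, and whether these are separate sites was not tested. The median gap inside clusters was 3284 bp, and the median cluster spanned 4.3 kb from its first base to its last.

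**Figure D2:**
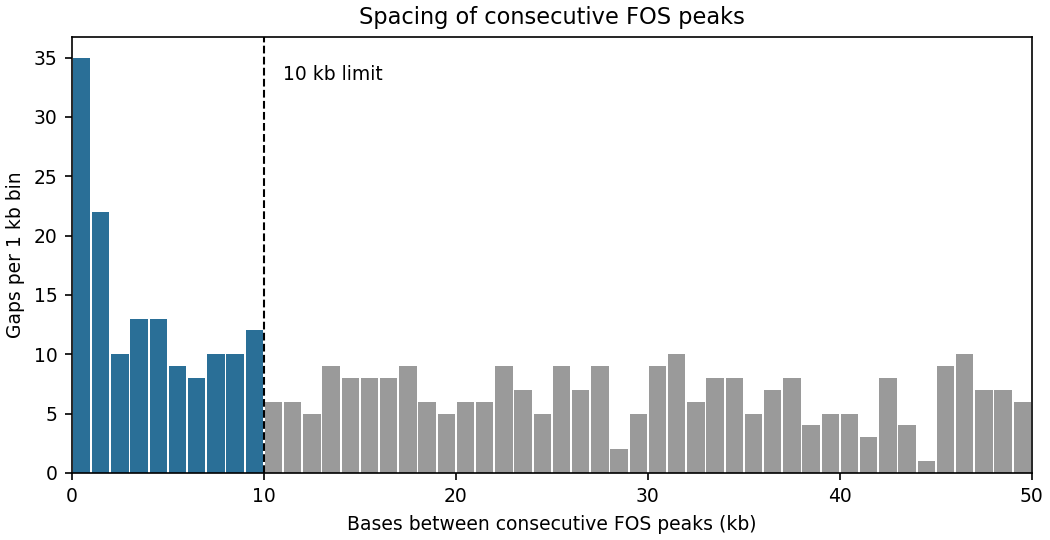
Number of gaps between consecutive FOS peaks on a chromosome (y axis) by length in 1 kb bins (x axis, up to 50 kb); blue bars are gaps inside clusters, grey bars longer gaps, and the dashed line is the 10 kb limit. The bin below 1 kb holds 35 gaps and the next 22.

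Close to the limit, 12 gaps measured 9267 to 9999 bp and were inside, and 12 measured 10145 to 11988 bp and were outside. The last pairs inside were at Adgrf5 (9999 bp, scores 26 and 40), between Mir181c and Mir23a (9984 bp, scores 275 and 73), at Ppp3ca (9982 bp, scores 61 and 39) and at Lmna (9967 bp, scores 112 and 188). The pairs just outside were at Wsb1 (10145 bp, scores 217 and 55) and between 6820408C15Rik and Defb23 (10226 bp, scores 40 and 83). Star, which carries cholesterol into mitochondria, also fell outside, with 10812 bp between peaks of score 81 and 104. A limit on the distance between centres in place of edges would take 258 peaks in 122 clusters.

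Neighboured peaks had scores much like those of other peaks. Their scores ran from 18 to 408 with a median of 69 (95% interval of the median 65 to 74), beside a median of 67 for the 2104 peaks with no neighbour (interval 65 to 69) and 67 for all peaks. Of the neighboured peaks 28 (10.4%) were among the top 10% of the list (score of at least 151), beside 10.1% of the others. Widths were also alike, with a median of 349.5 bp beside 341 bp. The best neighboured peak, in intron 1 of Arhgap28, ranked 8 of 2374, and every peak above it had no neighbour.

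Inside a cluster the scores of neighbours bore little relation to each other. Over the 118 clusters of 2 peaks, Pearson's r of the log2 scores was 0.08 and Spearman's rank correlation was 0.09. These points come from 1 library and are given as a description. The median ratio of strongest to weakest score was 1.60 over all 128 clusters (interval 1.52 to 1.82), and 27 clusters had a ratio above 3. In 42 clusters every peak was at or above the median score of the whole list, in 29 every peak was below it, and in 2 every peak was in the top 10%. Of the 22 neighboured peaks at the smallest width, 268 bp, 16 were the weakest of their cluster. Since 118 of the 128 clusters were pairs, in which 1 of 2 peaks is the weaker unless tied, a large share is given by construction. The widest neighboured peak, 1039 bp with a score of 155, was classed in intron 1 of the histone H3.3 gene H3f3b and also covered its TSS. The neighbour, of score 48, lay in intron 1 of Unk, and the pair was chosen after its values were seen.

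**Figure D3:**
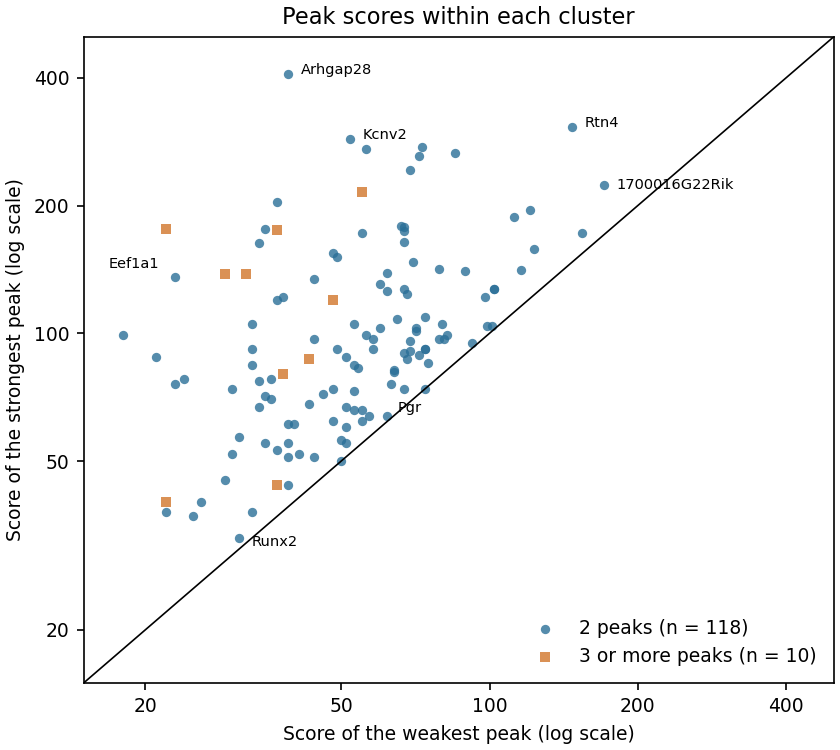
Score of the strongest peak (y axis, log scale) against that of the weakest peak (x axis, log scale) in each of the 128 clusters; circles are clusters of 2 peaks, squares clusters of 3 or more, and the line marks equal scores. Rtn4 and 1700016G22Rik are high on both axes, while Arhgap28 pairs a score of 408 with 39.

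The 12 clusters of 2 peaks with the best weaker peak held several strong pairs. At 1700016G22Rik, a long noncoding RNA gene, intergenic peaks at chr13:5837398-5845439 scored 224 and 171, the highest weaker score of all clusters. Syne2, which encodes the nuclear envelope protein nesprin-2, had peaks of score 154 and 172 in intron 1. Rtn4, which encodes the endoplasmic reticulum protein reticulon 4, had peaks of score 147 and 307 at chr11:29692094-29693149, and both were in the promoter class with 173 bp between them. The 1700016G22Rik and Syne2 pairs were the 2 clusters with every peak in the top 10%, and the weaker Rtn4 peak scored just under the limit of 151.

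Mcl1, an anti-apoptotic member of the BCL2 family, had a peak of score 123 in intron 1 and one of score 158 lying 5.7 kb downstream of the TSS. Kat2b, which encodes the histone acetyltransferase PCAF, had intron 1 peaks of score 121 and 195. Lmna, which encodes lamins A and C, had a peak of score 112 at its inner start site and one of score 188 at its outer start site. The ratios of these pairs, 1.28, 1.61 and 1.68, lay around the median of all clusters, 1.60, and the pairs were picked for a high weaker peak. The long noncoding RNA gene 9330111N05Rik had scores of 141 and 116, Creb3l2, a membrane-tethered transcription factor gene, 127 and 102 in intron 1, and Mrap, which encodes a melanocortin receptor accessory protein, 127 and 102 upstream of its TSS. Sema4b, a semaphorin gene, had 104 and 101 about 20 kb upstream, C430002N11Rik 104 and 99, and 4933440J02Rik 122 and 98.

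The widest differences inside a cluster were of another kind, a strong peak with a faint companion. Arhgap28 had scores of 408 and 39, a ratio of 10.5, with both peaks in intron 1 and 6794 bp between them. Eef1a1, which encodes a translation elongation factor, had a peak of score 136 in intron 1 and one of score 23 in an exon. Kcnv2, a potassium channel subunit gene, had scores of 287 and 52 in intergenic sequence 42.2 and 47.5 kb downstream, and Pim1, a serine/threonine kinase gene, had 204 at 1.0 kb upstream and 37 at 2.1 kb upstream. The fifth was the 3-peak cluster of Cirbp described next.

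Clusters of 3 or more peaks were few: 8 held 3 peaks, 1 held 4 and 1 held 6. The cluster of 6 peaks lay at chr10:80139290-80153271, over the neighbouring genes Dos (Cbarp in RefSeq), Atp5d and Midn. From left to right its scores were 131 at the promoter of Dos, 84 at the promoter of Atp5d, which encodes a subunit of the mitochondrial ATP synthase, 32 in Atp5d, 122 and 138 at the promoter of Midn, and 46 in intron 4 of Midn. Midn encodes midnolin, a protein known to carry immediate early transcription factors to the proteasome. The first of its 2 promoter peaks covered the TSS, and the second began 243 bp after the end of the first.

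At 10553 bp to the right lay a cluster of 3 peaks at Cirbp, a cold-inducible RNA-binding protein gene. Its scores were 110 and 176 at 3.8 and 1.8 kb upstream of the listed TSS and 22 in an exon of 1600002K03Rik. The authors' table classes the peaks of score 110 and 176 in intron 1 of Bc1. The latter also lay inside the RefSeq span of Cirbp, and the former did not. Both clusters together put 9 peaks in 34.0 kb. Chromosome 10 had the highest share of neighboured peaks, 34 of 146 (23.3%, interval 16.7 to 31.0), and 25 of 137 (18.2%, interval 12.2 to 25.7) without those 9 peaks. That rank rests on the stretch, since chromosome 19 had 16 of 71 (22.5%, interval 13.5 to 34), a share between both values. Chromosome 2 had the lowest share among autosomes, 6 of 180 (3.33%, interval 1.23 to 7.11). Chromosome X had 0 of 15, which allows a share of up to 20% at a floor of 3 counts and of up to 21.8% by the exact interval. The shares by chromosome count the positions that chose the members, so they describe the choice and are not a finding. Linked peaks become members together, so the intervals of these shares are too narrow.

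Hmga1, which encodes a DNA-bending chromatin protein, had the cluster of 4, with scores of 29 upstream, 113 at the promoter, and 63 and 138 in introns 3 and 4, for which the authors' table lists AI413582 as nearest gene. Clu, which encodes the secreted chaperone clusterin, had a peak of score 55 lying 2.8 kb upstream, 215 in an exon 103 bp after the TSS and 68 in intron 1. Gch1, which encodes the enzyme that starts tetrahydrobiopterin synthesis, had 175, 37 and 44 in intron 1. Bag3, a co-chaperone of HSP70, had 64, 43 and 87 within intron 1, and Ank3, which encodes the membrane adaptor ankyrin-G, had 48, 73 and 120 in intron 1. Peaks 27.7 to 33.0 kb upstream of Dhx40 scored 44, 37 and 44, and peaks between Spz1 and Serinc5 scored 22, 40 and 22. The ratio of strongest to weakest score ran from 1.19 at Dhx40 to 8 at Cirbp over the 10 clusters, and those at Dhx40 and Serinc5 held no peak at or above the list's median score.

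**Figure D4:**
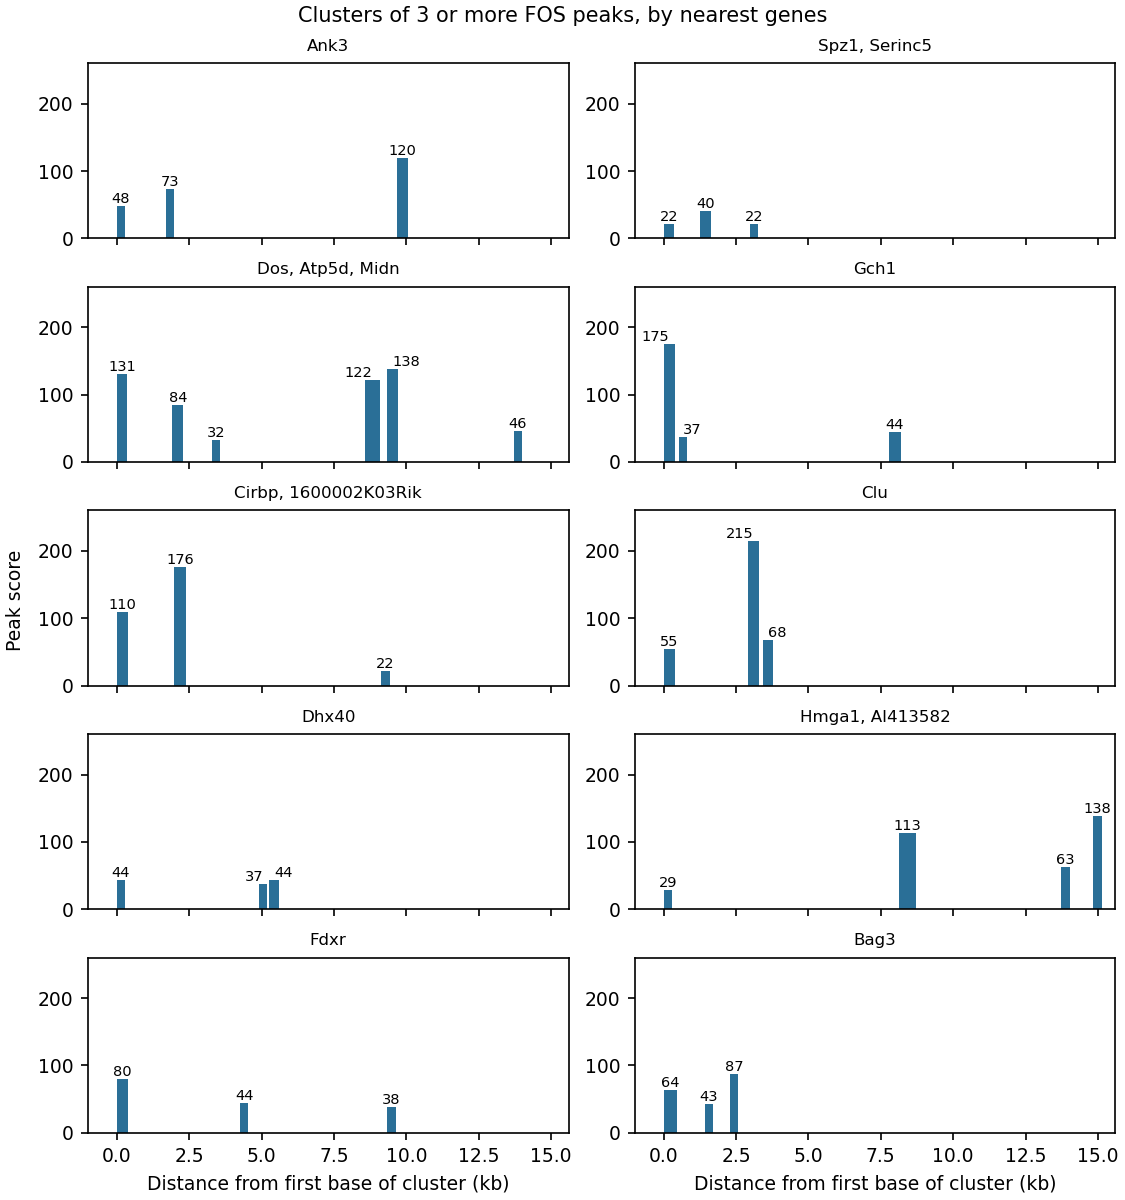
Peak score (y axis) against distance from the first base of the cluster in kb (x axis) for the 10 clusters of 3 or more FOS peaks, titled by nearest genes; each bar is 1 peak, drawn at its width and labelled with its score. The Dos, Atp5d and Midn cluster holds 6 peaks, and the tallest bar is the exon peak of Clu at 215.

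Peaks of a cluster usually shared their surroundings and their nearest gene, which the choice by position favours. In 109 of 128 clusters (85.2%) every peak had the same nearest gene, in 96 every peak had the same genomic class, and in 40 every peak lay in the same intron of the same gene. There were 46 clusters made of intronic peaks alone and 46 of intergenic peaks alone. In 57 clusters all peaks lay inside the span of 1 protein-coding gene, and in 10 of these that host was not the nearest gene. Among these, and chosen after their values were seen, Smad3, a transcription factor of the activin and TGF-beta pathway, held in its intron 1 peaks of score 67 and 51 that the authors' table gives to Aagab, and Itpr1, an intracellular calcium channel gene, held peaks of score 60 and 103 given to Mir7661.

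First introns held more of the neighboured peaks than of the others. Of the 270 peaks 68 lay in a first intron (25.2%, interval 20.1 to 30.8), beside 366 of 2104 (17.4%, interval 15.8 to 19.1). Peaks of 1 cluster share an intron, so the strongest peak of each cluster was also counted alone: 31 of 128 (24.2%, interval 17.1 to 32.6), an interval that overlaps that of the other peaks. Introns as a whole held 45.2% of neighboured and 44.6% of other peaks, and intergenic sequence 38.9% and 34.9%. The promoter class held 30 of 270 (11.1%, interval 7.62 to 15.5) beside 330 of 2104 (15.7%, interval 14.2 to 17.3). Promoters within 1 kb by the listed distance to the TSS gave 17.8% beside 19.5%, because 19 of the 48 peaks that close were classed elsewhere, so the lower promoter share depends on the definition. The median distance to the nearest TSS was 13.7 kb (interval 10.3 to 16.9) beside 19.2 kb (interval 17.4 to 22). Peaks of 1 cluster lie at similar distances, so the first interval is too narrow. Within 10 kb of a TSS lay 42.6% of neighboured peaks beside 37.8% of the others (interval 35.7 to 39.9). For the strongest peak of each cluster the share was 39.1% (interval 30.6 to 48.1), which overlaps that of the others.

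**Figure D5:**
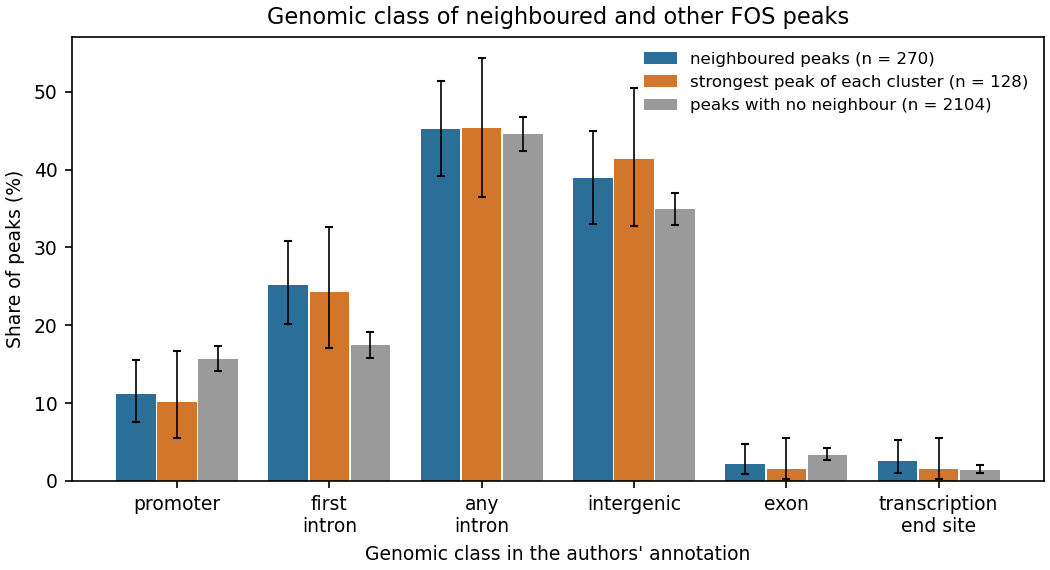
Share of peaks (%, y axis) in each genomic class of the authors' annotation (x axis) for neighboured peaks, the strongest peak of each cluster and peaks with no neighbour; error bars are exact 95% intervals for counting error, and first introns are also counted in any intron. First introns hold 25.2%, 24.2% and 17.4% of the 3 sets.

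A promoter peak was part of 24 clusters, and 4 of these had at least 2. Where a cluster held promoter and other peaks, the promoter peak scored highest in 10 of 21. Among the 103 clusters of 2 peaks with 1 nearest gene, the peak nearer the TSS was the stronger in 48, and 2 were tied. Neither count shows an order of strength by nearness to the gene. In 12 clusters the centres of the peaks lay on both sides of 1 TSS within 5 kb.

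Besides Midn, Rtn4, Clu and Adgrg1, these 12 included Fosl2, which encodes the FOS relative FRA2, with 131 at its promoter and 60 in intron 1. Ubb, a polyubiquitin gene chosen after its values were seen, had 48 at its promoter and a neighbour of score 62 assigned to Gm1821. The neighbour lay upstream of the Ubb TSS, 1041 bp before the promoter peak. Ubb was outside the 12 only because the listed nearest genes differ. Fscn1 had 51 at its promoter and 60 in intron 1, Lactb2 31 and 57, and 2010003K11Rik 33 and 84. A pair of long noncoding RNA genes were among them as well, 4930554I06Rik with 176 and 35 and 1700012D14Rik with 37 and 25. Fdxr, described with the steroid synthesis genes, was also among them.

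The authors' nearest genes of the neighboured peaks numbered 147, which is 7.48% of the 1965 nearest genes of all peaks. A gene with several peaks can more easily hold a cluster: 116 of the 318 genes with at least 2 peaks had a neighboured one (36.5%). The other 31 of the 147 genes had a single peak whose neighbour was given to another gene. By RefSeq biotype 118 of the 147 were protein-coding, 18 long noncoding RNAs, 9 miRNAs and 2 transcribed pseudogenes. Of 8 gene lists relevant to the tissue, holding 180 genes of the RefSeq table, 73 genes had a peak and 10 of these had a neighboured one. The counts per list are small, and nothing is called particular to a list from them.

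In the ovulatory response list 4 of the 20 genes with a peak had a neighboured one. Pgr, the progesterone receptor that ovulation requires, had its peaks 30.9 and 31.9 kb upstream, with scores of 74 and 67 and 733 bp between them at chr9:8867732-8869081. Hif1a, a hypoxia-response factor gene, had scores of 88 and 51 at 12.7 and 6.6 kb upstream. Runx2, a transcription factor gene that the ovulatory surge is known to induce, had 33 and 31 in intron 2 with 182 bp between them, both below 46, the lower quartile over all peaks. Cyp11a1, which encodes the enzyme that makes pregnenolone from cholesterol, had 92 at 2.3 kb and 33 at 5.8 kb upstream of the TSS that the authors' table lists. Both peaks lay inside the RefSeq span of the gene.

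Of the steroid synthesis list 2 of 11 genes with a peak were in clusters, Cyp11a1 and Fdxr. Fdxr, which feeds electrons to mitochondrial P450 enzymes such as that of Cyp11a1, had 80 in intron 2, 44 at its promoter and 38 at 5.5 kb upstream, at the end of Fads6. Both genes serve the same mitochondrial step. Of the AP-1, ATF and MAF list Fosl2 alone was in a cluster, of 10 genes with a peak. Of the early response list 0 of 12 were.

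Structural genes gave 4 more. Of the cytoskeleton and adhesion list 2 of 10 genes with a peak were in clusters: Lmna, described above, and Tns1, which encodes the focal adhesion protein tensin 1, with 44 in intron 7 and 134 in intron 6, the latter 126.1 kb from the TSS. Of the matrix list 2 of 9 were: Sdc1, which encodes the heparan sulfate proteoglycan syndecan 1, with 66 and 55 at 55.9 and 58.5 kb downstream, and Col18a1, which encodes a basement membrane collagen, with 51 at 44.9 kb upstream and a neighbour of score 44 given to Gm10941. Of the granulosa factor list Hif1a was the single gene among 10 with a peak, and Smad3 was added as a host gene. Of 20 marker genes of theca, endothelial, immune and oocyte cells 1 had a peak, and it had no neighbour. Itgax, which encodes an integrin of dendritic cells and other leukocytes, is not on that list, and it had a promoter peak of score 105 with a neighbour of score 80 at the end of Itgam, another leukocyte integrin gene. The part of other cell types in these peaks was not tested.

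A further 5 genes are described that were picked with their values known. Kitl, which encodes the KIT ligand that granulosa cells make for the oocyte, had peaks of score 62 and 139 in intron 1, 9.0 and 16.9 kb from its TSS. Igf1r, the receptor of insulin-like growth factor 1, had 58 and 97 in intron 2, and Bmp6, a growth factor of the BMP family, had 78 and 36 in intron 1. In Kitl and Igf1r the peak farther from the TSS scored higher, and in Bmp6 the nearer one did. Gadd45g, a stress-response gene, had intergenic peaks of score 109 and 74 at 6772 and 12034 bp downstream of its TSS. Txndc2, a thioredoxin domain gene, was nearest to 4 weak peaks in 2 clusters within 14.1 kb, with scores of 22, 38, 51 and 55.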

How the data were processed

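Per the file headers, the authors ran HOMER's annotatePeaks on a narrowPeak file with a genome sequence and gene annotation. The build was mm10, and the tools named were MACS2 2.2.7.1, deepTools 3.5.1, BWA and Trim Galore, per the submitters' processing notes. Threshold and control of the peak calls were not given in the sources used here. A deposited score ranks peaks within the list; its scale is not stated. The other deposited values, the interval edges and the distance to the TSS, are in bp.

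Gaps count the bases between interval edges, and linked peaks were joined in turn. The joining step was checked on simulated intervals. All 1965 gene names matched the RefSeq table of GRCm38.p6, the assembly mm10 names. Shares carry exact Clopper-Pearson 95% intervals, and medians exact binomial ones; both cover counting error only and treat neighbours as independent. Members and lists were chosen with earlier results of these data known.

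Described clusters are those with 3 or more peaks, the 12 pairs with the best weaker peak, the 5 smallest gaps, the 5 largest ratios, those with a listed nearest gene and those on both sides of a TSS within 5 kb; all other clusters described, those at the limit of the gap included, were chosen after their values were seen. One cluster that the last criterion takes is not reported here. Peak sequences were not analysed here, only promoter windows. Alternatives changed the gap, the score limit and definitions. Python 3.11.15, numpy 2.4.6, scipy 1.17.1 and pandas 2.3.3 were used.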

Additional observations from a re-analysis of the deposited data

How the results depend on the processing

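The counts follow the limit on the gap. With a gap of at most 5000 bp there were 177 peaks in 84 clusters, 6 of them with 3 or more peaks, and with at most 20000 bp the clusters of 3 or more peaks rose from 10 to 23. When peaks below the median score were dropped, 96 peaks formed 47 clusters, 1 of them with 3 or more peaks, and by construction the median score rose to 99 and the median score ratio fell to 1.34. Promoters taken as within 1000 bp of the TSS gave a share of 17.8%. The other 46 of 56 comparisons, among them those without the top 1% of scores and with host genes, moved a count by at most 1.5 times or left a value inside its interval. The depth is unknown, so whether more sequencing would split or add peaks was not tested.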
